A study of Mus musculus with 20 samples.

Results

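The subject is 10 chemokine genes measured in mouse ovary: Ccl2, Ccl5, Ccl6, Ccl8, Ccl19, Cxcl1, Cxcl9, Cxcl10, Cxcl12 and Cxcl16. They were taken by name from the 23457 genes in the deposited count files, and all 10 passed the filter on low counts that left 16099 genes for testing. Polyadenylated RNA was sequenced from whole ovaries of 20 female Ames dwarf stock mice, with 1 library per mouse and 5 libraries in each of 4 groups. The groups were normal heterozygotes (N/df) at 6 and 22 months and dwarf homozygotes (df/df) at 6 and 22 months. Dwarf mice carry the df allele on both chromosomes and lack growth hormone, prolactin and thyrotropin from the pituitary. Normal mice carry a single df allele, so no group is free of it, and the deficiency is lifelong and systemic rather than limited to the ovary. The labels name no further allele or treatment. The series title puts reproductive ageing of these long-lived mice as its subject, so the comparisons are of age within each genotype, of genotype at each age, and of the age response between genotypes.

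Chemokines are small secreted proteins that bind receptors on leukocytes and draw the cells along a gradient. Their names follow the spacing of conserved cysteines, with CC and CXC ligands as the main families, and their receptors are coupled to G proteins. Inflammatory chemokines are switched on by cytokines such as interferon-γ and tumour necrosis factor, while homeostatic ones are made without such a stimulus. In the ovary, leukocytes gather around ovulating follicles and regressing corpora lutea, and chemokines take part in their recruitment.

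In the deposited mm10 annotation, 5 of the 10 genes lie on chromosome 11 and 3 on chromosome 5. Ccl2 (chr11:82035577-82037452, plus strand) and Ccl8 (chr11:82115185-82116799, plus strand) are 77732 bases apart. Ccl5 (chr11:83525779-83530518) and Ccl6 (chr11:83587886-83593087), both on the minus strand, are 57367 bases apart. Cxcl9 (chr5:92321331-92328079) and Cxcl10 (chr5:92346639-92348889) are also neighbours on the minus strand, with 18559 bases between them. Cxcl1 (chr5:90891245-90893115, plus strand) lies in the cluster of neutrophil-attracting ligands. The others are Ccl19 (chr4:42754525-42756518, minus), Cxcl12 (chr6:117168535-117181368, plus) and Cxcl16 (chr11:70454234-70459984, minus). The annotation holds a second copy of Ccl19 on an unplaced scaffold, so its count may be incomplete where reads matched both copies. Of the 2448 exon bases of Cxcl16, 363 (14.8%) overlap Zmynd15 on the opposite strand, and reads there cannot be told apart because the strand setting of the counting is not given in the sources used here.

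RefSeq promoter sequences (GRCm38.p6, 250 bases before to 50 after the start site) were found for 7 of the 10 genes, and 3 are printed because their genes had the most distinct patterns over the libraries. Cxcl1 separated the young dwarf ovaries from the other groups. Cxcl9 and Cxcl10 are neighbouring genes that shared their highest library in each group but differed in some of the others. Capitals mark matches to the motifs searched on both strands. These were GAAA and GAAA separated by NN (the interferon-stimulated response element, ISRE), TTCNNNGAA (the GAS element), the NF-kB site and TATAAA (the TATA box).
Cxcl1 (chr5:90890995-90891294, plus strand): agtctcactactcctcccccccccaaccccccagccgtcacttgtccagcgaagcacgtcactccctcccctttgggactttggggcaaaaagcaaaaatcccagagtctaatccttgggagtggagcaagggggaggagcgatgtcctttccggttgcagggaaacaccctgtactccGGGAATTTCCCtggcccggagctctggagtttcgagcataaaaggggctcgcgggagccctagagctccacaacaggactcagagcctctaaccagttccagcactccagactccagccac
Cxcl9 (chr5:92328030-92328329, minus strand): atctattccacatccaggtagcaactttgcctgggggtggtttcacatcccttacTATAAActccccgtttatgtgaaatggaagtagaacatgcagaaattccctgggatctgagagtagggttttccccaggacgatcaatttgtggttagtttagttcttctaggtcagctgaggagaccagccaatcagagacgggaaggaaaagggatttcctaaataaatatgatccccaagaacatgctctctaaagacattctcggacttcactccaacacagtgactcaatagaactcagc
Cxcl10 (chr5:92348840-92349139, minus strand): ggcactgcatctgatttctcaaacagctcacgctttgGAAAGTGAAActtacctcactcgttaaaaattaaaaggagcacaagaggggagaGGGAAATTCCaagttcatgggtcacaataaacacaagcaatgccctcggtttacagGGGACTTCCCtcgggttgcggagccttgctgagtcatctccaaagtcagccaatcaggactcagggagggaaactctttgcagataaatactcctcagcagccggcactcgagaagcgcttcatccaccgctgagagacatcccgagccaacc
The Cxcl1 window held an NF-kB match on each strand, at -71 and -70 from the start site, which overlap and form a single run of capitals. The Cxcl10 window held NF-kB matches at -159 and -103 and an ISRE match at -213. The Cxcl9 window held only TATAAA, at -195. Over the 7 windows, the NF-kB motif matched in 2 (Cxcl1 and Cxcl10), the ISRE in 2 (Ccl19 and Cxcl10), the TATA box in 2 (Ccl8 and Cxcl9) and GAS in 0. Of all 32851 mouse promoter windows of this length, 4.51% held the NF-kB motif, 3.44% the ISRE, 13.6% the TATA box and 8.3% the GAS motif. These matches are descriptions of the sequence and not of binding.

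Libraries held between 1365640 and 36068284 gene counts, and values are given as CPM, each count scaled to the total of its library. Granulosa cell markers summed to between 372 and 4063 CPM in 19 libraries. Normal 6-month replicate 2 stood apart from its ovary label, with a granulosa cell marker sum of 172 CPM against 2482 to 4063 CPM in the rest of its group and an oocyte marker sum of 4.44 CPM against 182 to 319 CPM. It also had a luteal marker sum of 124 CPM and 6354 CPM of oviduct epithelium markers, against 31.3 to 127 CPM for the latter in the other 4 libraries of its group. Normal 6-month replicate 3 was the shallowest library, where 3 counts equal 2.20 CPM. Normal 22-month replicate 3 held the highest macrophage (2300.0 CPM), T and NK cell (182 CPM) and B and plasma cell (1258 CPM) marker sums of its group, and it was the highest of all 20 libraries for 8 of the 10 chemokine genes. For single chemokine genes, results that rest on these 3 libraries are given with and without them. Counts of called marker genes and receptors are from all 20 libraries. Dwarf 22-month replicates 1 and 4 were the closest of all pairs within a group but differed by more than counting noise, and were kept as separate mice.

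Compared per kilobase of exon, the order of the genes differed between groups. Cxcl12 had the highest median level in young normal ovaries (11.7 CPM per kb), Cxcl16 in old normal ovaries (14.2 CPM per kb), and Ccl19 in young and old dwarf ovaries (11.6 and 17.8 CPM per kb). Cxcl9 was lowest in all 4 groups, with medians of 0.354, 0.591, 0.347 and 0.282 CPM per kb in normal 6, normal 22, dwarf 6 and dwarf 22 months. The top and the bottom of the order were 33.0-fold apart in young normal, 24.0-fold in old normal, 33.5-fold in young dwarf and 63.1-fold in old dwarf ovaries. Neighbours in the order mostly overlapped. In young normal ovaries, for example, Cxcl12 ranged from 6.85 to 16.5 and Cxcl16 from 5.66 to 15.8 CPM per kb.

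**Figure D1:**
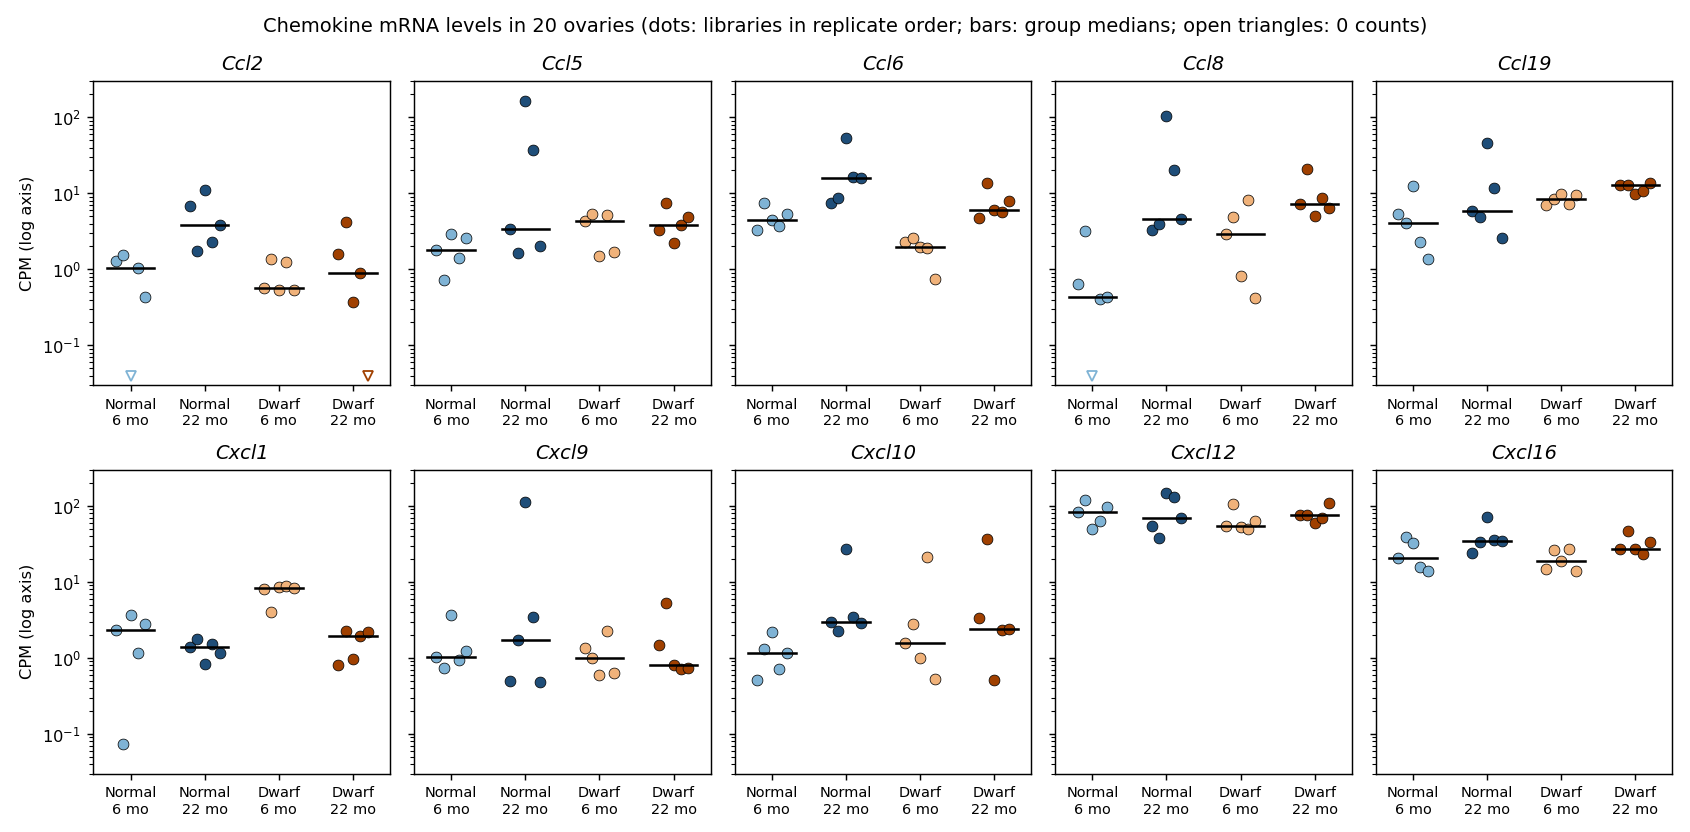
Level of each of the 10 chemokine genes in every library, in CPM on a log axis, by group. Dots are libraries, bars are medians of 5 libraries and open triangles are libraries with 0 counts. The 5 young dwarf libraries are the highest for Cxcl1 (4.04 to 8.86 CPM), and normal 22-month replicate 3 stands above the rest for Ccl5, Ccl8 and Cxcl9.

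Age in normal ovaries was accompanied by higher Ccl5, Ccl6 and Ccl8, which were called higher at 22 than at 6 months by edgeR's quasi-likelihood test. A call here is a p under 0.05 after Benjamini-Hochberg adjustment across every gene tested. That is 3 of 10 chemokine genes higher and 0 lower, where 2.6% of all 16099 tested genes were called higher, 4.14% lower and 6.75% in either direction. Log2 fold changes were above 0 for 9 of the 10, with a median of 2.26 against -0.02 over all tested genes. An unadjusted p under 0.05 was reached by 8 of the 10 and by 3748 of all 16099 tested genes. The calls depended on which libraries were kept. Without normal 22-month replicate 3 the number called was 0, the median was 0.82 and 8 of 10 changes were above 0. Without normal 6-month replicate 4 the number called was also 0. Without the 3 libraries that stood apart, Ccl6, Ccl8 and Cxcl16 were called higher and the median was 1.36. That fit called 4814 of all 16099 tested genes in either direction, so 3 of 10 there is close to the share over all genes.

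Ccl8, a CC ligand that acts on CCR8 in mice, was measured at 0.642, 3.20, 0, 0.401 and 0.431 CPM in normal 6-month replicates 1 to 5. At 22 months it was 3.31, 3.95, 104, 20.2 and 4.56 CPM. The groups did not overlap, although replicate 2 at 6 months and replicate 1 at 22 months lay close together and the 0 was in the shallowest library. Its log2 fold change was 4.70 ± 1.14 (SE, n = 5 and 5, edgeR adjusted p = 0.0207). It was 2.82 without normal 22-month replicate 3 (edgeR adjusted p = 0.0862) and 4.06 without the 3 libraries that stood apart (edgeR adjusted p = 0.00865). The call was also lost without normal 6-month replicate 1, 4 or 5 (edgeR adjusted p = 0.0532, 0.0651 and 0.0512). Over all 19 alternatives the adjusted p ranged from 3.9e-05 to 0.191.

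Ccl5, a CC ligand made largely by T and NK cells, was at 1.80, 0.728, 2.93, 1.43 and 2.59 CPM in young normal ovaries. In old normal ovaries it was at 3.36, 1.63, 162, 37.4 and 2.00 CPM. Replicates 3 and 4 were far above the others, while replicates 2 and 5 lay within the range of the young group. Ccl5 had a log2 fold change of 4.60 ± 1.10 (SE, n = 5 and 5, edgeR adjusted p = 0.0202), and of 2.54 without replicate 3 (edgeR adjusted p = 0.0891). It lost its call without normal 6-month replicate 4 as well (edgeR adjusted p = 0.0603), and without the 3 libraries that stood apart. Over 19 alternatives its adjusted p ranged from 3.4e-05 to 0.268. T and NK cell markers summed to 182 and 83.9 CPM in old normal replicates 3 and 4 and to 15.8 to 33.3 CPM in the other 3. In whole tissue, more cells of a type and more RNA per cell cannot be told apart, and the part of these cells in the chemokine values was not tested.

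Ccl6, a rodent CC ligand that acts on CCR1 and is made by macrophages, was at 3.34, 7.43, 4.39, 3.70 and 5.42 CPM in young normal ovaries. It was at 7.35, 8.76, 53.6, 16.6 and 16.0 CPM in old ones, so the groups overlapped at a single pair of libraries. By edgeR, the log2 fold change was 2.07 ± 0.500 (SE, n = 5 and 5, edgeR adjusted p = 0.0200). Without normal 22-month replicate 3 it was 1.26 (edgeR adjusted p = 0.0756), and without the 3 libraries that stood apart it was 1.58 (edgeR adjusted p = 0.0112). It also lost its call without normal 6-month replicate 1 or 4 (edgeR adjusted p = 0.0509 and 0.0651), within a range of 0.00124 to 0.191 over 19 alternatives. Macrophage markers summed to 295 to 535 CPM in young and 714 to 2300.0 CPM in old normal ovaries, with all 12 listed genes in the files and none at 0 in any library, and 5 of the 12 were called higher. Their part in the Ccl6 values was not tested.

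Ccl2, the main ligand of CCR2 on monocytes, was at 1.28, 1.53, 0, 1.03 and 0.431 CPM in young normal ovaries. It was at 6.76, 1.72, 11.0, 2.31 and 3.87 CPM in old normal ovaries. The groups did not overlap, but the 0 in young replicate 3 allows up to 2.20 CPM at that depth, above the lowest old library. The log2 fold change of 2.45 ± 0.751 missed the threshold (SE, n = 5 and 5, edgeR adjusted p = 0.0551) and passed it in 5 of 19 alternatives. Without normal 22-month replicate 3 the log2 fold change was 1.93. Ccl2 was not called there, nor without the 3 libraries that stood apart.

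Cxcl9 and Cxcl10 bind CXCR3 on activated T and NK cells and are induced by interferon-γ. Cxcl9 was at 0.493, 1.72, 113, 3.47 and 0.483 CPM in old normal ovaries, against 1.03, 0.728, 3.66, 0.936 and 1.23 CPM in young ones. Its log2 fold change of 4.37 ± 1.35 missed the threshold (SE, n = 5 and 5, edgeR adjusted p = 0.0587) and rested on replicate 3, without which it was 0.16 (edgeR adjusted p = 0.938). Leaving out normal 22-month replicate 1, 2 or 5 or normal 6-month replicate 2 brought its edgeR adjusted p to between 0.0366 and 0.0495. Old replicates 1 and 5 were below every young library.

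Cxcl10 was also highest in old replicate 3 but, unlike its neighbour, was above every young library in old replicates 1 and 5. It was at 2.96, 2.23, 27.4, 3.47 and 2.90 CPM in old normal ovaries and 0.514, 1.31, 2.20, 0.713 and 1.17 CPM in young ones. The groups did not overlap, though the highest young value was 3 counts in the shallowest library. Its log2 fold change was 2.95 ± 1.26 (SE, n = 5 and 5, edgeR adjusted p = 0.168), and 1.44 without replicate 3. In all, 3 of the 10 genes (Ccl2, Ccl8 and Cxcl10) had groups that did not overlap with age in normal ovaries, where 2.39% of all tested genes did.

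**Figure D2:**
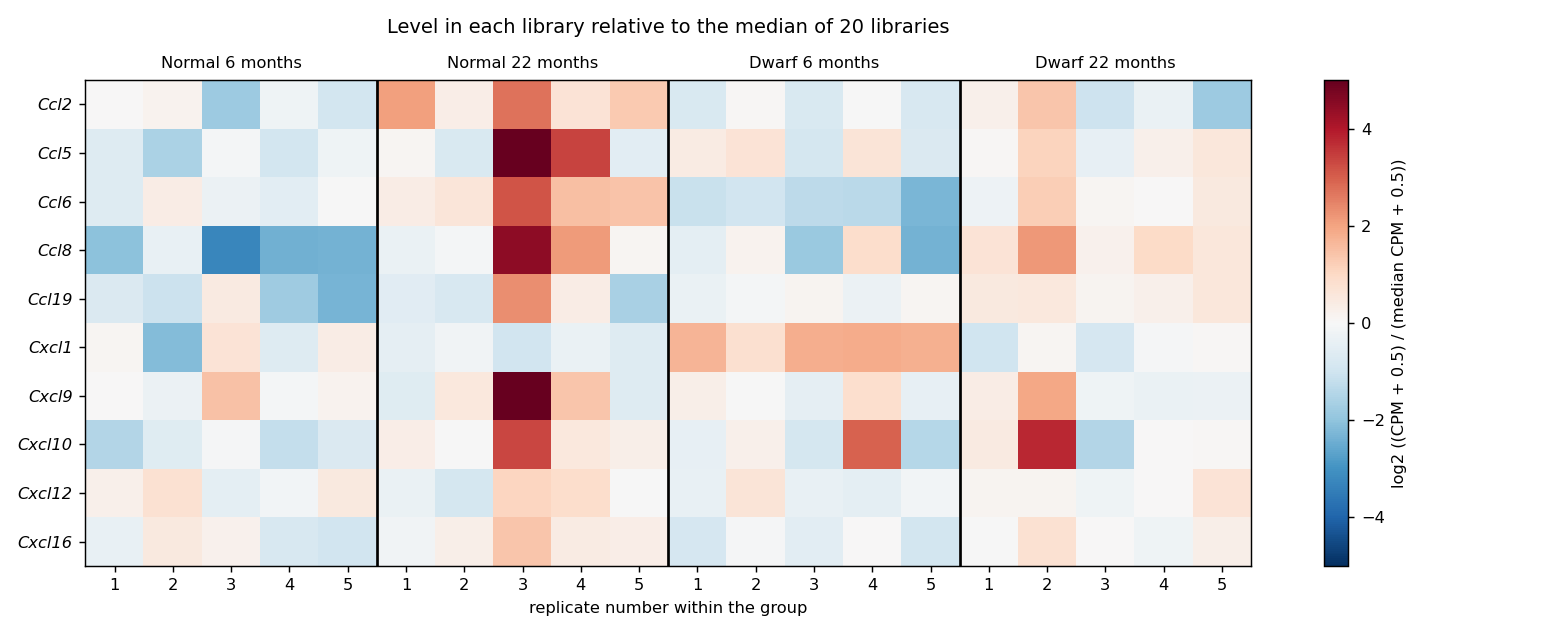
Heat map of the 10 chemokine genes (rows) in the 20 libraries (columns, by group), as the log2 ratio of CPM to the median of the 20 libraries with 0.5 CPM added to both, and with colours limited at -5 and 5. Normal 22-month replicate 3 is high in 9 of 10 rows relative to its group, and dwarf 22-month replicate 2 and dwarf 6-month replicate 4 are high for Cxcl10.

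In dwarf ovaries, age was accompanied by higher Ccl6 and lower Cxcl1, which are 1 gene called higher and 1 lower of 10. Of all tested genes, 11.2% were called in either direction, 2.92% higher and 8.27% lower. The median log2 fold change of the 10 genes was 0.58, against 0.00 over all tested genes. Ccl6 and Cxcl1 were also the 2 genes whose groups did not overlap, where 22.1% of all tested genes did not overlap, so this share is near the background.

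Cxcl1, a ligand of CXCR2 that recruits neutrophils and is induced through NF-kB, was at 7.98, 4.04, 8.68, 8.86 and 8.37 CPM in young dwarf ovaries. It was at 0.799, 2.27, 0.967, 1.97 and 2.22 CPM in old dwarf ovaries. Every young library was above every old one, and replicate 2 was the lowest of the young group. Its log2 fold change was -2.30 ± 0.554 (SE, n = 5 and 5, edgeR adjusted p = 0.0134), and it was called lower in all 19 alternatives, with values of -2.50 to -2.09 and adjusted p of 8e-06 to 0.0424. In normal ovaries Cxcl1 was at 2.31, 0.0728, 3.66, 1.16 and 2.83 CPM at 6 months and 1.38, 1.80, 0.825, 1.54 and 1.17 CPM at 22 months. The normal groups overlapped, with a log2 fold change of -0.46 (95% interval -1.66 to 0.74, edgeR adjusted p = 0.666). Granulosa cell markers summed to 2117 to 3442 CPM in young and 976 to 1822 CPM in old dwarf ovaries, and oocyte markers to 246 to 375 and 39.6 to 66.8 CPM. Neutrophil markers, of which 6 of 7 were in the files, summed to 0.673 to 5.64 CPM in young dwarf ovaries and 0.400 to 27.2 CPM in old ones. The part of these cells in the Cxcl1 values was not tested.

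Ccl6 in dwarf ovaries was at 2.27, 2.61, 1.95, 1.90 and 0.749 CPM at 6 months and 4.66, 13.7, 6.02, 5.73 and 7.96 CPM at 22 months. The groups did not overlap. By edgeR, the log2 fold change was 1.95 ± 0.498 (SE, n = 5 and 5, edgeR adjusted p = 0.0175), close in size to the 2.07 in normal ovaries. The call was lost without dwarf 22-month replicate 2 (log2 1.64, edgeR adjusted p = 0.0608) and without dwarf 6-month replicate 5 (log2 1.79, edgeR adjusted p = 0.0540), and held in the other 17 of 19 alternatives. Macrophage markers summed to 347 to 495 CPM in young and 438 to 683 CPM in old dwarf ovaries, and 0 of 12 were called. All 12 had a log2 fold change above 0, with a median of 0.31. An unadjusted p under 0.05 was reached by 1 of the 12 and by 4529 of all 16099 tested genes. The part of macrophages in the Ccl6 values of dwarf ovaries was not tested.

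Ccl8 in dwarf ovaries was at 2.93, 4.93, 0.808, 8.15 and 0.416 CPM at 6 months and 7.19, 20.8, 4.98, 8.69 and 6.48 CPM at 22 months. The groups overlapped, and the log2 fold change of 1.45 did not pass (95% interval -0.57 to 3.46, edgeR adjusted p = 0.331). Ccl2 was at 0.561, 1.37, 0.539, 1.27 and 0.527 CPM in young dwarf ovaries and 1.60, 4.15, 0.372, 0.896 and 0 CPM in old ones. Ccl5 was at 4.33, 5.40, 1.48, 5.20 and 1.69 CPM and at 3.33, 7.41, 2.23, 3.85 and 4.82 CPM in the same groups. Both overlapped between ages, with log2 fold changes of 0.70 and 0.20 that did not pass (edgeR adjusted p = 0.538 and 0.912).

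Cxcl10 in dwarf ovaries depended on single mice. It was at 1.59, 2.79, 1.01, 21.2 and 0.527 CPM at 6 months and 3.33, 37.0, 0.521, 2.33 and 2.41 CPM at 22 months. Replicate 4 of the young and replicate 2 of the old group were far above the rest of their groups. The log2 fold change was 0.71 (95% interval -1.56 to 2.98, edgeR adjusted p = 0.688), -1.39 without the latter library and 2.59 without the former. Cxcl9 was at 2.25 and 5.24 CPM in these same libraries, the highest of each group, against 0.606 to 1.34 and 0.717 to 1.47 CPM in the others.

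Ccl19, the ligand of CCR7 that guides dendritic cells and naive T cells, varied little within dwarf ovaries, at 6.98, 8.37, 9.90, 7.24 and 9.43 CPM when young and 12.8, 12.9, 9.74, 10.6 and 13.5 CPM when old. The lowest old value was just under the highest young one. The log2 fold change of 0.42 did not pass (edgeR adjusted p = 0.682). In normal ovaries it was more scattered, at 5.26, 4.00, 12.4, 2.27 and 1.35 CPM when young and 5.82, 4.89, 46.0, 11.8 and 2.56 CPM when old. The log2 fold change of 1.66 did not pass either (edgeR adjusted p = 0.150), and it was 0.39 without old replicate 3.

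Cxcl12, the homeostatic ligand of CXCR4 and ACKR3, was called in no comparison (0 of 5). It was at 83.5, 118, 49.1, 63.8 and 97.7 CPM in young normal ovaries and 54.7, 37.7, 148, 129 and 68.8 CPM in old ones. In dwarf ovaries it was at 54.1, 108, 53.4, 50.0 and 63.4 CPM when young and 75.4, 76.7, 59.0, 70.0 and 111 CPM when old. All 4 groups overlapped. The log2 change with age was 0.07 in normal ovaries (95% interval -0.60 to 0.74) and 0.19 in dwarf ovaries (95% interval -0.48 to 0.85), which allows changes of either sign.

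Cxcl16, a transmembrane chemokine that binds CXCR6 and is released by proteolytic shedding, was at 20.9, 38.7, 32.2, 15.6 and 13.9 CPM in young and 24.3, 33.6, 71.3, 36.1 and 34.8 CPM in old normal ovaries. It was at 14.9, 26.1, 18.9, 27.3 and 14.1 CPM in young and 27.3, 46.7, 27.4, 23.2 and 33.3 CPM in old dwarf ovaries. Groups overlapped in both genotypes. The log2 fold changes of 0.71 and 0.57 did not pass (edgeR adjusted p = 0.209 and 0.262). Without the 3 libraries that stood apart both passed, at 0.99 and 0.61 (edgeR adjusted p = 0.0109 and 0.0441), and the normal one also passed without normal 6-month replicate 2 alone (0.97, edgeR adjusted p = 0.0417). The adjusted p over 19 alternatives was 0.0109 to 0.822 in normal and 0.0441 to 0.494 in dwarf ovaries. Oviduct epithelium markers, 6 of 7 in the files, were higher in old libraries of both genotypes, at 2084 to 3893 CPM against 31.3 to 1588 CPM in the young ones other than normal replicate 2. Their part in these values was not tested.

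**Figure D3:**
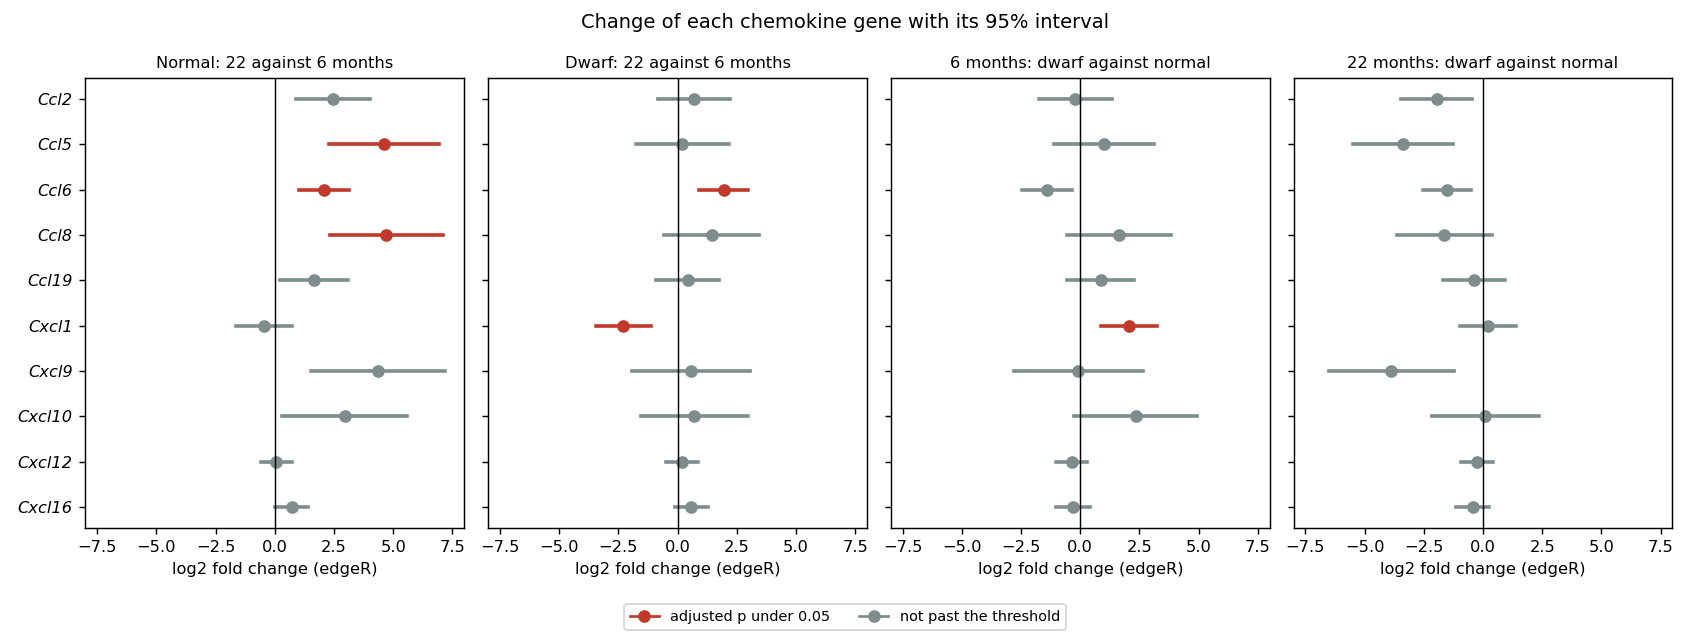
Log2 fold change of each chemokine gene with its 95% interval in 4 comparisons, from edgeR's quasi-likelihood fit on all 20 libraries. Red marks an adjusted p under 0.05: Ccl5, Ccl6 and Ccl8 with age in normal ovaries, Ccl6 and Cxcl1 with age in dwarf ovaries, and Cxcl1 between genotypes at 6 months.

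Between genotypes at 6 months, Cxcl1 was higher in dwarf ovaries, the single call among the 10 genes, where 4.57% of all tested genes were called in either direction and 2.27% higher. The comparison uses the same 5 young dwarf libraries as the age comparison in dwarf ovaries, so the 2 Cxcl1 results share them. Its 5 dwarf values (4.04 to 8.86 CPM) were above all 5 normal ones (0.0728 to 3.66 CPM), of which the lowest was 1 count in normal replicate 2. Its log2 fold change was 2.05 ± 0.568 (SE, n = 5 and 5, edgeR adjusted p = 0.0458). It remained between 1.70 and 2.34 in all 19 alternatives, but passed the threshold in 10 of them. Leaving out dwarf 6-month replicate 1, 3, 4 or 5 or normal 6-month replicate 1 or 4 gave edgeR adjusted p of 0.0632 to 0.0982, while leaving out the 3 libraries that stood apart gave a log2 fold change of 1.91 (edgeR adjusted p = 0.00634). Luteal cell markers, 6 of 6 in the files, summed to 1557 to 2986 CPM in young dwarf ovaries and to 9322 to 11645 CPM in young normal ones other than replicate 2, and 3 of the 6 were called lower. Their part in the Cxcl1 values was not tested.

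Ccl6 showed the opposite order at 6 months, with all 5 dwarf values (0.749 to 2.61 CPM) below all 5 normal ones (3.34 to 7.43 CPM). The log2 fold change of -1.41 ± 0.501 did not pass (SE, n = 5 and 5, edgeR adjusted p = 0.119). Cxcl1 and Ccl6 were thus 2 of 10 genes whose genotypes did not overlap, where 5.88% of all tested genes did not. Ccl19 passed only without the 3 libraries that stood apart, at a log2 fold change of 1.59 (edgeR adjusted p = 0.0240), against 0.86 with them (edgeR adjusted p = 0.551).

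At 22 months, 0 of 10 chemokine genes were called between genotypes, where 3.81% of all tested genes were. An unadjusted p under 0.05 was reached by 2894 of all 16099 tested genes and by 4 of the 10. These 4 were Ccl2, Ccl5, Ccl6 and Cxcl9, with log2 fold changes of -1.96, -3.39, -1.54 and -3.87 for dwarf against normal (edgeR adjusted p = 0.139, 0.0677, 0.0818 and 0.0927). DESeq2 and limma voom each called 2 lower, Ccl5 and Ccl6 by the former and Ccl2 and Ccl6 by the latter. Over all tested genes, in either direction, these methods called 1201 and 2291. For Cxcl9 and Cxcl10, DESeq2 gave no adjusted p. All 10 genes overlapped between the groups, against non-overlap in 7.24% of tested genes. Macrophage markers summed to 438 to 683 CPM in old dwarf and 714 to 2300.0 CPM in old normal ovaries, and 2 of 12 were called lower. Their part in these differences was not tested. The median log2 fold change of the 10 genes was -0.99 with all libraries and 0.08 without the 3 that stood apart. Ccl2 was called lower without dwarf 22-month replicate 2 (-2.91, edgeR adjusted p = 0.0365), and Ccl5 without normal 22-month replicate 2 or 5 (edgeR adjusted p = 0.0371 and 0.0338). Without normal 22-month replicate 3, Ccl5 was at -1.36 and Ccl6 at -0.73 (edgeR adjusted p = 0.380 and 0.336), and Cxcl9 was at 0.27 (edgeR adjusted p = 0.908).

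The age responses of the genotypes were not shown to differ for any of the 10 genes. By edgeR and limma voom, 0 of 10 were called, and edgeR called 0% of all tested genes. DESeq2 also called 0, but it gave no adjusted p for Cxcl9 and Cxcl10. At an unadjusted p under 0.05 there were 4, and 1126 of all 16099 genes. The 4 were Ccl5, Ccl8, Cxcl1 and Cxcl9, with differences of dwarf minus normal log2 responses of -4.40, -3.25, -1.84 and -3.79 (edgeR adjusted p = 0.594, 0.669, 0.659 and 0.704). For Ccl6 the difference was -0.12, with a 95% interval from -1.60 to 1.35.

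**Figure D4:**
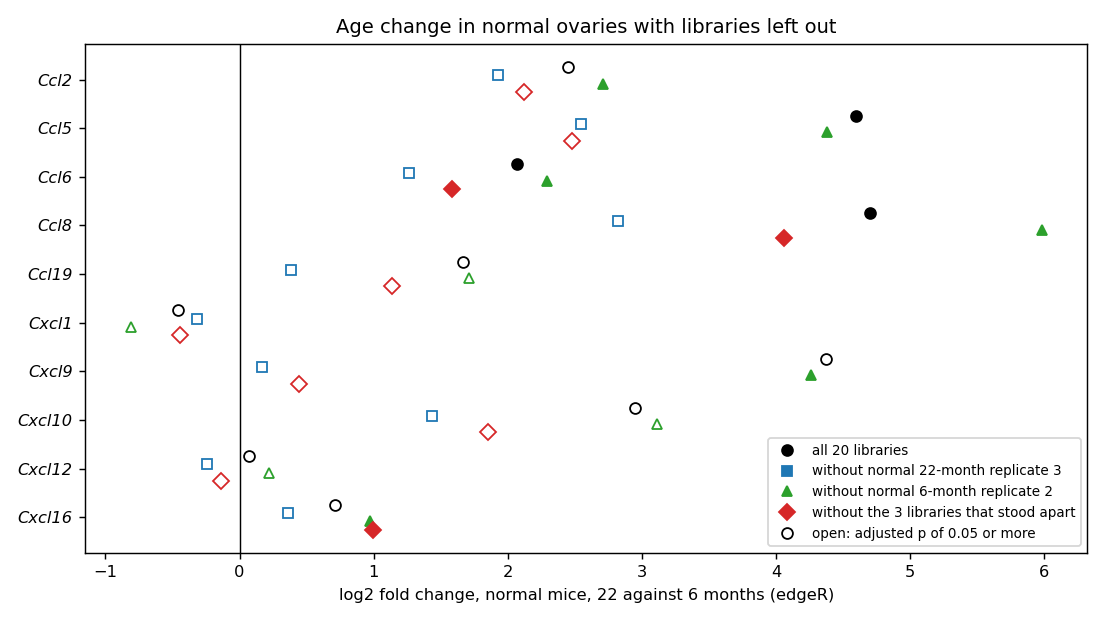
Log2 fold change with age in normal ovaries for each chemokine gene, with all libraries, without normal 22-month replicate 3, without normal 6-month replicate 2, and without the 3 libraries that stood apart. Filled symbols have an adjusted p under 0.05. Without normal 22-month replicate 3 no symbol is filled, and Cxcl9 moves from 4.37 to 0.16.

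Of 27 other chemokine ligands listed, 26 were in the files and 17 were tested. With age in normal ovaries 8 had an unadjusted p under 0.05, as did 3748 of all 16099 tested genes. After adjustment 1 of these ligands was called higher and 0 lower. This was Cxcl13, the ligand of CXCR5 that attracts B cells, at 0.514, 2.04, 0, 0.535 and 0.554 CPM when young and 1.53, 13.3, 344, 11.0 and 6.22 CPM when old. The groups overlapped at a single pair, the log2 fold change was 6.51 ± 1.42 (SE, n = 5 and 5, edgeR adjusted p = 0.0133), and the call was lost in 3 of 18 alternatives. Without normal 22-month replicate 3 it was 3.20 (edgeR adjusted p = 0.0413). In dwarf ovaries 0 were called higher and 1 lower with age. This was Cxcl14, at 266, 221, 334, 184 and 386 CPM when young and 111, 107, 102, 119 and 207 CPM when old. Its log2 fold change was -1.20 ± 0.327 (SE, n = 5 and 5, edgeR adjusted p = 0.0243), and the call was lost in 7 of 19 alternatives, among them without dwarf 22-month replicate 1, 2, 3 or 4 or dwarf 6-month replicate 3 or 5. Ccl21a, the other CCR7 ligand listed, was at 0 in all 20 libraries, but its annotation has 2 loci and exons shared with Gm1987 on the same strand, so reads from it may not have been counted and the 0 does not show absence.

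Of 18 signalling chemokine receptors, 14 were tested and edgeR called 0 in each of the 5 comparisons, with 9 at an unadjusted p under 0.05 for age in normal ovaries and 0 to 2 in the others. Over all 16099 tested genes, 3748 had such a p for age in normal ovaries and 1126 to 4529 in the others. DESeq2 called 5 higher and limma voom 1 higher with age in normal ovaries, and 1 and 4 higher with age in dwarf ovaries. Over all tested genes, in either direction, they called 1766 and 3859 with age in normal ovaries and 2747 and 7519 in dwarf ovaries. Cxcr2, which binds Cxcl1, was at 24.3, 25.6, 26.9, 24.5 and 38.3 CPM in young dwarf ovaries and 23.3, 16.5, 18.4, 25.4 and 23.0 CPM in old ones, and was not called. Of the 5 atypical receptors and of the 5 tested proteases that cut or shed chemokines, edgeR called 0 in each comparison, with 0 to 2 of each list at an unadjusted p under 0.05. DESeq2 called at most 1 of either list in a comparison and limma voom up to 4. Over the 5 comparisons, DESeq2 called 17 to 2747 and limma voom 9 to 7519 of all tested genes.

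Among 20 chemokine inducers and their receptors, 17 were tested. With age in normal ovaries 3 were called higher and 0 lower, all of the tumour necrosis factor family. Ltb, a subunit of the membrane-bound lymphotoxin that induces homeostatic chemokines, was at 2.31, 4.30, 2.20, 2.23 and 2.03 CPM when young and 8.14, 7.30, 115, 15.8 and 7.60 CPM when old (log2 3.57 ± 0.698, SE, n = 5 and 5, edgeR adjusted p = 0.00973). Lta and Tnf were at 0 to 1.03 and 0 to 0.655 CPM when young and 1.03 to 6.31 and 0.964 to 8.90 CPM when old, with log2 fold changes of 2.10 and 2.58 (edgeR adjusted p = 0.0151 and 0.0329). Old replicate 3 was the highest for all 3. Without it Tnf was at 1.63 and not called (edgeR adjusted p = 0.151), and it also lost its call without normal 6-month replicate 1, 4 or 5, while Ltb and Lta were called without each library left out. Without old replicate 3 they were at 1.82 and 1.42 (edgeR adjusted p = 0.0126 and 0.0475). Over all alternatives, Ltb was called in 17 of 18, Lta in 17 of 19 and Tnf in 10 of 19. In dwarf ovaries 1 was called lower with age and 0 higher, Ifngr2, a subunit of the interferon-γ receptor, at a log2 fold change of -0.49 ± 0.109 (SE, n = 5 and 5, edgeR adjusted p = 0.00885).

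The genes whose levels followed each chemokine most closely over the 20 libraries were found among 13234 others with a mean of at least 2 CPM. Ccl8 was followed most closely by H2-Q4 (Spearman rho 0.92, Pearson r 0.83), Cxcl10 by H2-DMa (rho 0.89, r 0.92) and Ccl5 by Clec12a (rho 0.88, r 0.93). Ccl6 was followed by Pcmtd1 (rho 0.94, r 0.90), Cxcl16 by Xaf1 (rho 0.93, r 0.86) and Cxcl1 by Wash (rho 0.89, r 0.79). Cxcl9 had the loosest best match, Cd86 (rho 0.69, r 0.92), and r fell to 0.68 without the 2 libraries farthest from the median. Among the chemokines themselves, Ccl5 and Cxcl10 were the most alike (rho 0.74) and Ccl6 and Cxcl1 the least (rho -0.65). The 20 libraries share groups, tissue make-up and a few high libraries, so these values are descriptions.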

How the data were processed

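The deposited files hold 1 count per gene and library, in the layout of HTSeq. The submitters' processing notes name mm10 and the tools edgeR, DESeq, HTSeq, Bowtie2, TopHat and TopHat2 2.0.10, with no role for each, and per the labels' protocols RNA was extracted with Trizol. Neither the strand setting nor the annotation release was stated, which matters for genes that overlap on opposite strands. The 5 summary rows (9.84 to 17.6% of each file) were left out of library totals. The deposited gene annotation gave positions, and exon lengths were the union of its exons.

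The deposited raw counts were fitted with edgeR 4.0.16 under R 4.3.3 (filterByExpr with a minimum count of 10 and a minimum total of 15, TMM scaling, robust quasi-likelihood fit of the 4 group means over 20 libraries). The p-values were adjusted over all 16099 tested genes. The standard error is the absolute log2 fold change divided by the square root of F. DESeq2 1.42.0 and limma 3.58.1 (voom with quality weights) were alternatives, beside RLE scaling, no filter, only the groups compared, a replicate block, each library left out, the 3 libraries that stood apart left out, dwarf 22-month replicates 1 and 4 summed, and title numbers 21 to 23 left out. The test was also run on simulated counts with the same spread for every gene and no outlying library. That run does not cover the libraries that stood apart here. The chemokine genes, the other gene lists and the alternatives were chosen with earlier results of these data known. All 10 chemokine genes are named. Of the other lists the called genes are named, and Cxcr2 and Ccl21a were named after their values were seen. Some listed genes are not reported here. Of each chemokine's 3 closest genes by Spearman correlation, the first is named for 7 of the 10. Replicate numbers were not taken as pairs, though the values do not settle whether some are. Of 30 same-numbered pairs across groups, 10 had a correlation of deviations above 0.1, and values ranged from -0.215 to 0.719. Their median was 0.0014, against -0.020 for other pairs, and 8 of 20 libraries correlated best with a library of their own number. Each library was taken as a separate mouse, as the design text gives 20 mice. Depth limits the low genes, and floors of 3 counts cover counting error only. No per-sample columns were left unused (0).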

Additional observations from a re-analysis of the deposited data

Results flagged for a closer look

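In 40 groups of 5 libraries (10 chemokine genes in 4 groups), 15 held a library far from the other 4 by Dixon's test. That test flags about 1 in 20 groups by chance where values are normally distributed. It was run here on CPM of genes that share the same libraries, so this rate is only a rough guide. Normal 22-month replicate 3 was the highest of its group in 7 of the 15. It had 162 CPM of Ccl5 (next 37.4), 53.6 CPM of Ccl6 (next 16.6), 104 CPM of Ccl8 (next 20.2), 46.0 CPM of Ccl19 (next 11.8), 113 CPM of Cxcl9 (next 3.47), 27.4 CPM of Cxcl10 (next 3.47) and 71.3 CPM of Cxcl16 (next 36.1). Dwarf 22-month replicate 2 was the highest of its group in 3, with 20.8 CPM of Ccl8 (next 8.69), 5.24 CPM of Cxcl9 (next 1.47) and 37.0 CPM of Cxcl10 (next 3.33). Dwarf 6-month replicate 4 had 21.2 CPM of Cxcl10 (next 2.79). Dwarf 6-month replicate 2 was the lowest for Cxcl1, at 4.04 CPM (next 7.98), and the highest for Cxcl12, at 108 CPM (next 63.4). Normal 6-month replicate 2 had 3.20 CPM of Ccl8 (next 0.642). Normal 6-month replicate 3, the shallowest library, had 3.66 CPM of Cxcl9 (next 1.23).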

How the results depend on the processing

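Of the values for single chemokine genes under the alternatives, 922 kept their direction and their side of the threshold, 30 lost a call, 25 gained one and 63 changed sign, and 0 of those 63 were called with all libraries or in the alternative. DESeq2 gave no adjusted p for Cxcl9 and Cxcl10 in any comparison, and those values are among the 922 by their direction alone. The number of the 10 chemokine genes called with age in normal ovaries was 3, but 0 with only the groups compared or without title numbers 21 to 23, and 0 to 6 with each library left out (0 without normal 22-month replicate 3 or normal 6-month replicate 4, 1 without normal 6-month replicate 1, 5 without normal 22-month replicate 2, 6 without normal 6-month replicate 2). With age in dwarf ovaries it was 2, but 4 by limma voom, which called 7519 of all 16099 tested genes there, and 1 to 2 with each library left out. Counts over all genes also moved between the alternatives and are given at the end of this section. By genotype at 6 months it was 1, but 2 by DESeq2 and without the 3 libraries that stood apart, 0 with only the groups compared, without title numbers 21 to 23 and with the replicate block, and 0 to 1 with each library left out. By genotype at 22 months it was 0, but 2 by DESeq2 and limma voom, and 0 to 1 with each library left out. The difference of the age responses gave 0 in each alternative. With the replicate block, Ccl2 passed with age in normal ovaries (2.65, edgeR adjusted p = 0.0496), Ccl5 did not (3.33, edgeR adjusted p = 0.0953), and Cxcl1 did not by genotype at 6 months (2.13, edgeR adjusted p = 0.0647); 8 of 20 libraries correlated best with a library of their own number.

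The log2 values that changed sign fell in these settings. By limma voom, these were Cxcl12 -0.042 with age in normal ovaries, Ccl5 -0.038 and Cxcl9 -0.13 with age in dwarf ovaries, Cxcl16 0.061 and Cxcl9 0.12 by genotype at 6 months, Ccl19 0.85, Ccl8 0.16 and Cxcl10 -0.49 by genotype at 22 months. With the replicate block, these were Cxcl9 0.12 by genotype at 6 months, Ccl19 0.33 and Cxcl10 -0.10 by genotype at 22 months, Ccl6 0.018 for the difference of the age responses. Without the 3 libraries that stood apart, these were Cxcl12 -0.14 with age in normal ovaries, Cxcl16 0.30 and Cxcl9 0.15 by genotype at 6 months, Ccl19 0.91, Ccl8 0.29, Cxcl12 0.067 and Cxcl9 0.33 by genotype at 22 months, Ccl6 0.41 and Cxcl9 0.18 for the difference of the age responses. Without title numbers 21 to 23, these were Cxcl12 -0.21 with age in normal ovaries, Ccl19 0.88, Ccl8 0.41 and Cxcl9 0.51 by genotype at 22 months, Ccl19 0.34, Ccl6 0.71, Cxcl16 0.43 and Cxcl9 0.67 for the difference of the age responses. With each library left out, with age in normal ovaries, Cxcl12 ranged from -0.24 to 0.29. With each library left out, with age in dwarf ovaries, Ccl2 ranged from -0.25 to 1.01, Ccl5 ranged from -0.079 to 0.41, Cxcl10 ranged from -1.39 to 2.59 and Cxcl9 ranged from -0.36 to 0.92. With each library left out, by genotype at 6 months, Ccl2 ranged from -0.47 to 0.033 and Cxcl9 ranged from -0.43 to 0.26. With each library left out, by genotype at 22 months, Ccl19 ranged from -0.66 to 0.89, Ccl8 ranged from -2.11 to 0.25, Cxcl10 ranged from -2.00 to 1.60, Cxcl12 ranged from -0.42 to 0.060 and Cxcl9 ranged from -4.81 to 0.27. With each library left out, for the difference of the age responses, Ccl19 ranged from -1.78 to 0.035, Ccl6 ranged from -0.46 to 0.68, Cxcl12 ranged from -0.079 to 0.43, Cxcl16 ranged from -0.40 to 0.21 and Cxcl9 ranged from -4.76 to 0.41.

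Over all genes, the calls with age in normal ovaries were 1086, against 1766 by DESeq2, 3859 by limma voom, 0 with only the groups compared, 193 without title numbers 21 to 23, 4814 without the 3 libraries that stood apart and 449 to 4474 with each library left out. With age in dwarf ovaries they were 1802, against 2747 by DESeq2, 7519 by limma voom, 5247 with only the groups compared, 1033 with dwarf 22-month replicates 1 and 4 summed, 4675 without the 3 libraries and 801 to 1575 with each left out. By genotype at 6 months they were 735, against 1414 by DESeq2, 1860 by limma voom, 231 with only the groups compared, 2008 without the 3 libraries and 362 to 1408 with each left out. At 22 months they were 614, against 1201 by DESeq2, 2291 by limma voom, 297 with the pair summed, 324 without title numbers 21 to 23, 1772 without the 3 libraries and 281 to 634 with each left out. For the difference of the age responses they were 0, against 17 by DESeq2, 9 by limma voom and 204 without the 3 libraries. Except where fewer libraries were fitted, the cause of these shifts was not tested. Depth limits the low genes most in normal 6-month replicate 3, where 3 counts equal 2.20 CPM.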
